A study of Mus musculus with 4 samples.

Results

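The miR-126 rows of the deposited table are 4 of its 847 miRNA rows, chosen by name. Their names in the table are mmu-miR-126a-3p, mmu-miR-126a-5p, mmu-miR-126b-3p and mmu-miR-126b-5p. They were measured by small RNA sequencing in macrophages sorted from the bone marrow (BM) or the spleen of C57BL/6J mice. The mice were 6 to 8 weeks old, per the labels. The groups were BM macrophages of mice with MLL-AF9 acute myeloid leukaemia (AML BM), BM macrophages of normal mice (normal BM), spleen macrophages of AML mice (AML spleen) and spleen macrophages of normal mice (normal spleen). AML mice had received GFP+ leukaemia cells without irradiation and were sampled 18 days later, so they kept their own blood-forming system beside the leukaemia. MLL-AF9 is a leukaemogenic fusion of a histone methyltransferase with AF9. There was 1 library per group, and the sources used here give neither the sort markers nor the number of mice behind a library. Differences between libraries therefore have no replicate check, no p-value is given for a pair of libraries, and the intervals printed cover counting error only.

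miR-126a is processed from a hairpin in an intron of Egfl7, a gene of endothelial cells, and its 3p arm is the miRNA best known for endothelial cells, where it supports growth factor signalling by repressing Spred1 and Pik3r2. It is also known from haematopoietic stem cells, where it restrains cell cycle entry, and from leukaemic stem cells. It is not among the miRNAs by which macrophages are usually recognised. The miR-126b rows are annotated on the opposite strand of the same hairpin.

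The sequences are shown because the 4 rows come from opposite strands of 1 stretch of chromosome 2, and their counts have to be read with that in view. RefSeq sequences on GRCm38.p6 matched 3 of the 4 rows by name, all but miR-126a-5p. The sources used here do not name the build behind the deposited counts. The Mir126a hairpin lies at chr2:26591357-26591429 on the plus strand, and Mir126b at chr2:26591363-26591420 on the minus strand. In the GENCODE annotation of the same build, 9 Egfl7 transcripts span the Mir126a hairpin, which is intronic in 8 of them and exonic in 1, a retained-intron transcript. In the mature sequences below, capitals mark the seed, bases 2 to 8, which pairs with target mRNAs.
miR-126a-3p: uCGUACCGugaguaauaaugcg
miR-126b-3p: cGCGUACCaaaaguaauaaugug
miR-126b-5p: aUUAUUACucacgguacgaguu
In the Mir126a hairpin below, capitals mark bases 7 to 29, which are the exact reverse complement of the whole miR-126b-3p.
Mir126a hairpin: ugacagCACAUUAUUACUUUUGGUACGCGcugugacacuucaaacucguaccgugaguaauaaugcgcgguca
The 3 mature sequences have 3 different seeds, and no other mature name in the RefSeq table carries any of them. miR-126a-3p occupies bases 46 to 67 of the hairpin. The reverse complement of miR-126b-5p occupies bases 43 to 64, so these miRNAs share 19 bases on opposite strands.

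The guide arm miR-126a-3p carried most miR-126 reads in every library. It had 1162 counts in AML BM, 1165 in normal BM, 712 in AML spleen and 213 in normal spleen. Total counts per library ranged from 180227 in AML spleen to 435492 in normal spleen. In counts per 1000000 reads of the TMM-scaled library (CPM), its level in BM was 4144 with AML and 5618 in normal mice. Its level in spleen was 3690 with AML and 543 in normal mice. The order from high to low was thus normal BM, AML BM, AML spleen and normal spleen. Exact Poisson 95% intervals of these levels were 3909 to 4389 (AML BM), 5300 to 5950 (normal BM), 3424 to 3972 (AML spleen) and 473 to 621 (normal spleen). The intervals of AML BM and AML spleen overlapped, while normal BM lay above and normal spleen below all others. By count it was the 43rd most abundant row of AML BM, the 34th of normal BM, the 44th of AML spleen and the 94th of normal spleen.

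The other arm, miR-126a-5p, had 120 counts in AML BM, 68 in normal BM, 49 in AML spleen and 10 in normal spleen, or 428, 328, 254 and 25.5 CPM. The row of miR-126b-3p held exactly the same counts in all 4 libraries, so these rows are 1 measurement printed under 2 names and are not independent. No other row of the table matched a miR-126 row in all 4 libraries within 3% or 2 counts. Because miR-126b-3p is the reverse complement of the 5p side of the hairpin, shown in capitals above, the table does not tell whether these reads came from the miR-126a or the miR-126b strand.

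The antisense miR-126b-5p was the row with the lowest counts in every library except normal spleen. It had 57 counts in AML BM, 16 in normal BM, 16 in AML spleen and 13 in normal spleen, or 203, 77.2, 82.9 and 33.2 CPM. In normal spleen its 13 counts stood beside the 10 of miR-126a-5p. Its counts did not repeat those of miR-126a-3p on the opposite strand. Over the table, 12 pairs of rows have RefSeq positions that overlap by at least 10 bases on opposite strands. Of these, 8 had identical counts in all 4 libraries and 10 matched within 3% or 2 counts. The pairs that did not match were miR-126a-3p with miR-126b-5p and miR-30f with miR-30e-3p. Among the 6 pairs with at least 30 counts in some library, 4 matched. The count of 12 does not include miR-126a-5p with miR-126b-3p. The sources used here name no strand setting, so which strand the reads of miR-126b-5p came from was not tested. Its changes below are those of a row and not surely of an antisense product.

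**Figure D1:**
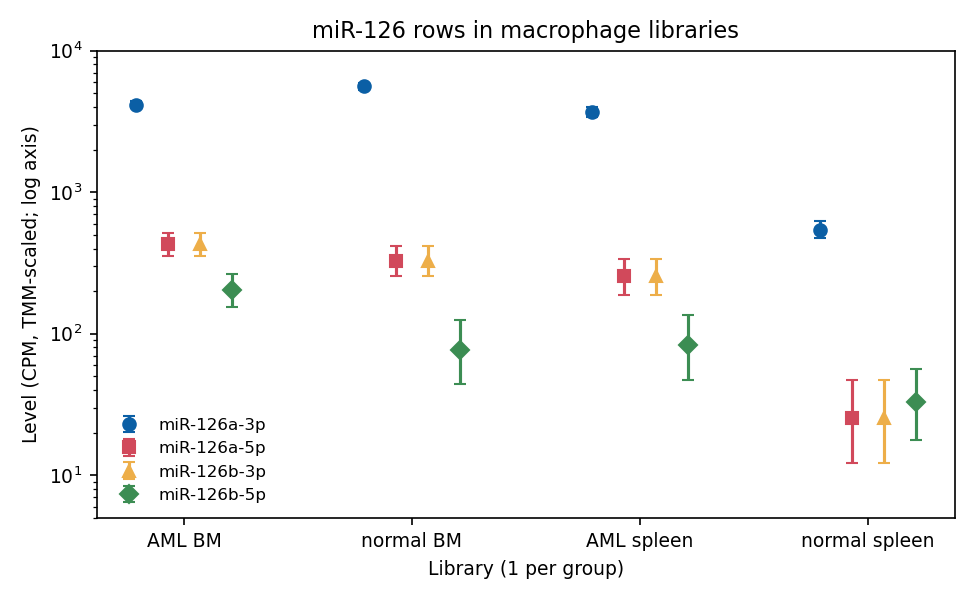
Level of each miR-126 row (y axis, CPM of the TMM-scaled library, log axis) in the 4 libraries (x axis, 1 per group), with bars for exact Poisson 95% intervals that cover counting error only. miR-126a-3p stands at 3690 CPM or more in AML BM, normal BM and AML spleen and at 543 CPM in normal spleen, and the points of miR-126a-5p and miR-126b-3p coincide because their counts are identical.

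In leukaemic against normal BM, miR-126a-3p was lower by less than 2-fold and its antisense row miR-126b-5p was higher. A row is called higher or lower here when the ratio of scaled counts is at least 2 or at most 0.5, its exact conditional 95% interval excludes 1 and the larger count is at least 30. miR-126a-3p, with 4144 CPM in AML BM against 5618 CPM in normal BM, had a log2 ratio of -0.44 [-0.56 to -0.32] and was not called. miR-126a-5p, with 120 counts in AML BM against 68 in normal BM, had a log2 ratio of 0.38 [-0.06 to 0.84], an interval that includes 0. miR-126b-5p had a log2 ratio of 1.40 [0.58 to 2.30] and was called higher. Of all 216 miRNAs compared, 25.5% were called, 13.4% higher and 12.0% lower, so 1 called row among 4 is near the background. The split of 29 higher and 26 lower became 39 and 19 when libraries were scaled without their 10 most abundant miRNAs, which raised every log2 ratio of this comparison by 0.20.

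In leukaemic against normal spleen, miR-126a-3p stood 6.79-fold higher. Its level of 3690 CPM in AML spleen against 543 CPM in the normal one gave a log2 ratio of 2.76 [2.54 to 2.99]. Of the 216 miRNAs compared, 7 had a higher ratio, among them the rows miR-126a-5p and miR-126b-3p. The 49 counts of miR-126a-5p in AML spleen against 10 in the normal one gave a log2 ratio of 3.32 [2.32 to 4.46], with 2 miRNAs above it. The identical row miR-126b-3p gave the same value. miR-126b-5p had 16 counts with AML against 13 without, under the minimum of 30 for a call, and its log2 ratio was 1.32 [0.17 to 2.50]. Of the 4 rows, 3 were called higher, 2 of them with identical counts. In this comparison 46.3% of miRNAs were called, 25.0% higher and 21.3% lower, with a median log2 ratio of -0.25. The split of 54 higher and 46 lower turned into 51 against 68 under DESeq2's size factors, which moved every log2 ratio by -0.24. It turned into 64 against 36 under plain totals, which moved them by 0.25. The ratio of miR-126a-3p stayed between 2.52 and 3.01 over the alternatives run.

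Without leukaemia, spleen macrophages had 10.3-fold less miR-126a-3p than BM macrophages. Levels of 543 CPM in normal spleen against 5618 CPM in normal BM gave -3.37 [-3.59 to -3.16] as log2 ratio. For miR-126a-5p, 10 counts in normal spleen against 68 in normal BM gave -3.68 [-4.81 to -2.72]. In this comparison 66.2% of 234 miRNAs were called, 30.8% higher and 35.5% lower, so a called difference was common. The ratio of miR-126a-3p was toward the low end, with 20 miRNAs lower, among them the rows miR-126a-5p and miR-126b-3p, and 213 higher. Other scalings moved every log2 ratio of this comparison by -0.16 to 0.24. miR-126b-5p, with 13 counts in normal spleen against 16 in normal BM, had a log2 ratio of -1.22 [-2.39 to -0.07] and was too thinly covered to be called.

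In leukaemic mice miR-126a-3p was within 2-fold between the tissues, while miR-126b-5p was lower in the spleen. miR-126a-3p had 3690 CPM in AML spleen against 4144 CPM in AML BM, a log2 ratio of -0.17 [-0.30 to -0.03], near the median of -0.12 over the 211 miRNAs compared. miR-126a-5p stood at 254 CPM in AML spleen against 428 CPM in AML BM, a log2 ratio of -0.75 [-1.26 to -0.26] that was not called. miR-126b-5p had 16 counts in AML spleen against 57 in AML BM and was called lower, at -1.29 [-2.19 to -0.47]. In this comparison 35.1% of miRNAs were called, 13.7% higher and 21.3% lower. The comparisons share libraries with those above, so their values are given side by side and not as separate evidence.

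**Figure D2:**
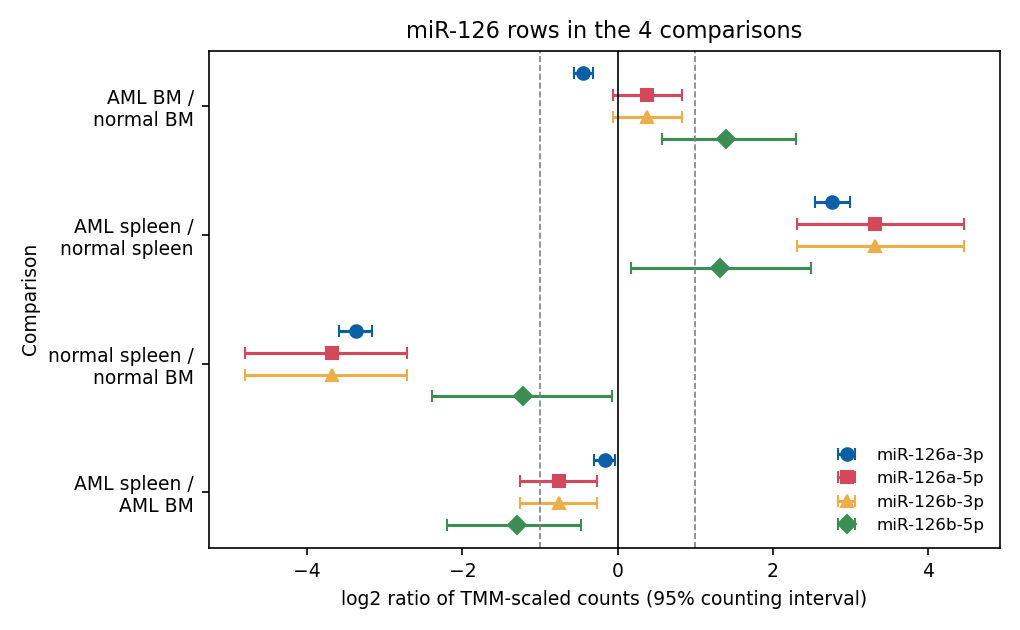
Log2 ratio of TMM-scaled counts (x axis) of each miR-126 row in the 4 comparisons (y axis), with bars for exact conditional 95% intervals, a solid line at 0 and dashed lines at 2-fold. miR-126a-3p stands at 2.76 in AML against normal spleen and at -3.37 in normal spleen against normal BM, and within 1 of 0 in the comparisons AML against normal BM and AML spleen against AML BM.

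The AML-to-normal ratio of miR-126a-3p differed between the tissues by 3.20 on the log2 scale [2.95 to 3.45], with the ratio in spleen above that in BM. The interval is from counting errors, and the difference was not tested over replicates. Of the 186 miRNAs compared in both tissues, 12 had a larger difference, and their median was -0.38. For miR-126a-5p the difference was 2.93 [1.86 to 4.003]. For miR-126b-5p it was -0.08 [-1.40 to 1.25], an interval wide enough to hold a difference of more than 2-fold either way, so no statement about that row can be made at this depth.

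**Figure D3:**
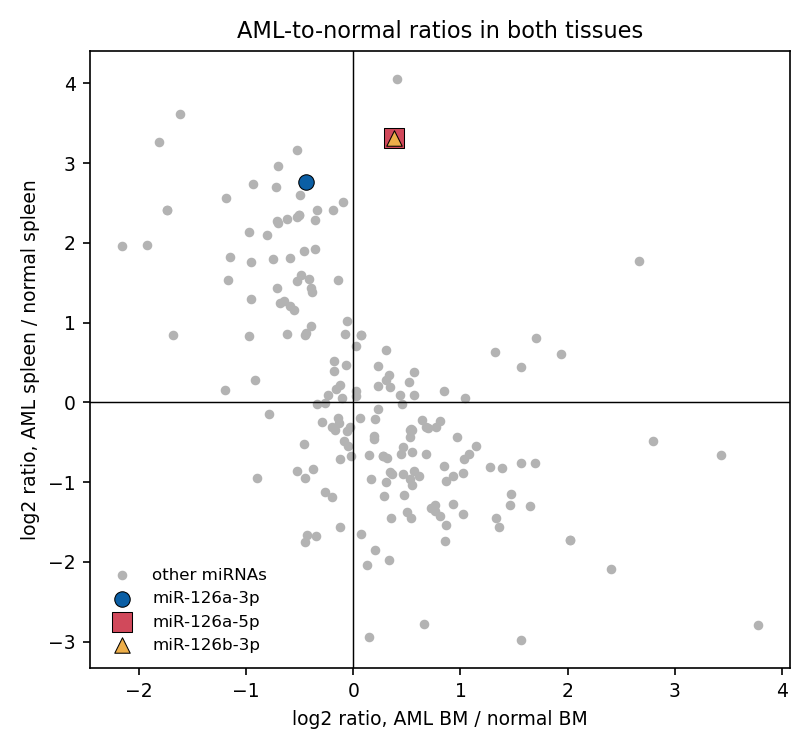
Log2 ratio of AML BM to normal BM (x axis) and of AML spleen to normal spleen (y axis) for the 186 miRNAs that reached the minimum count in both comparisons. miR-126a-3p lies at -0.44 and 2.76 and the coinciding points of miR-126a-5p and miR-126b-3p at 0.38 and 3.32, while miR-126b-5p is not drawn because it had too few counts in the spleen.

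A fit over all 4 libraries with terms for tissue and leukaemia leaves 1 residual degree of freedom and counts a tissue-dependent effect of leukaemia as noise. With edgeR's quasi-likelihood test, the leukaemia term of miR-126a-3p was 1.16 on the log2 scale with an adjusted p of 0.998, and that of miR-126a-5p was 1.76 with the same adjusted p. It called 0 of 246 miRNAs (0.0%) for leukaemia, with 0 at an unadjusted p under 0.05, and DESeq2 and limma also called 0. The tissue term of miR-126a-3p, spleen against BM, was -1.76 with an adjusted p of 0.758 by edgeR, where 0 miRNAs (0.0%) were called and 15 had an unadjusted p under 0.05. DESeq2 called 12 (4.88%) for tissue, and limma called 0. The miR-126 rows were not among the called ones, and the adjusted p of miR-126a-3p in DESeq2 was 0.380. The noise behind these p-values is the tissue-dependent part of the leukaemia effect, pooled over miRNAs. For miR-126a-3p that part is the log2 difference of 3.20 between the tissues given above. The p-values do not measure the spread between mice or between repeat libraries.

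The balance of the miR-126a arms is a ratio within a library and needs no scaling. The 3p arm made up 90.6% of miR-126a reads in AML BM [88.9% to 92.2%] and 94.5% in normal BM [93.1% to 95.7%], with exact binomial 95% intervals. It made up 93.6% in AML spleen [91.6% to 95.2%] and 95.5% in normal spleen [91.9% to 97.8%]. AML BM had the lowest share, and its interval did not reach that of normal BM. There were 9.68 reads of the 3p arm per read of the 5p arm in AML BM, 17.1 in normal BM, 14.5 in AML spleen and 21.3 in normal spleen. In AML BM against normal BM this ratio had a log2 change of -0.82 [-1.27 to -0.38]. In AML spleen against normal spleen it was -0.55 [-1.56 to 0.45], which includes 0. In AML spleen against AML BM it was 0.59 [0.09 to 1.08], and in normal spleen against normal BM 0.31 [-0.67 to 1.29]. The 5p reads may belong to either strand, as described above, so this balance is one of rows and not surely of arms of the same precursor.

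miR-126b-5p did not keep a fixed ratio to miR-126a-3p on the other strand. It made up 4.68% of the summed reads of these rows in AML BM [3.56% to 6.02%] and 1.35% in normal BM [0.78% to 2.19%]. In the spleen it made up 2.20% in AML mice [1.26% to 3.54%] and 5.75% in normal mice [3.10% to 9.64%]. Its reads relative to those of miR-126a-3p thus had a log2 change of 1.84 [1.03 to 2.65] in AML BM against normal BM and of -1.44 [-2.52 to -0.36] in AML spleen against normal spleen. These are small counts, from 13 to 57 per library.

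The 10 miRNAs whose profile over the 4 libraries lay nearest to that of miR-126a-3p were taken from the 144 rows with at least 30 counts in every library. Likeness was the root-mean-square difference of log2 levels after each miRNA was centred on its own mean, a measure in which library scaling cancels. The nearest was miR-143-3p, a miRNA of smooth muscle and fibroblasts, at 0.10, against a median of 1.42 over all rows. It was followed by the epithelial miR-200a-3p (0.13), miR-101a-3p (0.16), miR-30a-5p (0.17), miR-100-5p (0.18), the liver and gut miR-192-5p (0.18), the HOX-embedded miR-10b-5p (0.19), miR-194-5p (0.21), miR-455-5p (0.25) and the epithelial miR-200b-3p (0.28). These are miRNAs known from several tissues, and no statement of shared function follows from 4 points. At a minimum of 10 counts, miR-126a-5p was the 19th nearest of 197 rows (0.42) and miR-126b-5p the 56th (0.86).

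The same comparison can be given as reads within a library. miR-143-3p was picked as the nearest of 144 profiles, so a near-constant ratio to it follows from that choice and is a description only. There were 29.4 reads of miR-126a-3p per 100 of miR-143-3p in AML BM [27.5 to 31.4] and 28.2 in normal BM [26.4 to 30.2]. There were 27.2 in AML spleen [25.0 to 29.6] and 24.2 in normal spleen [20.8 to 28.2]. All 4 intervals overlapped. Against miR-10b-5p, also among the 10 nearest, there were 46.1 reads per 100 in AML BM [42.9 to 49.4] and 37.8 in normal BM [35.3 to 40.5], and 34.3 in AML spleen [31.5 to 37.4] and 32.9 in normal spleen [28.1 to 38.5], and the interval of AML BM lay above the others. Against the haematopoietic miR-142a-3p the range was wider, with 684 reads of miR-126a-3p per 100 in AML BM and 3758 in normal BM, and with 281 in AML spleen and 12.5 in normal spleen.

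**Figure D4:**
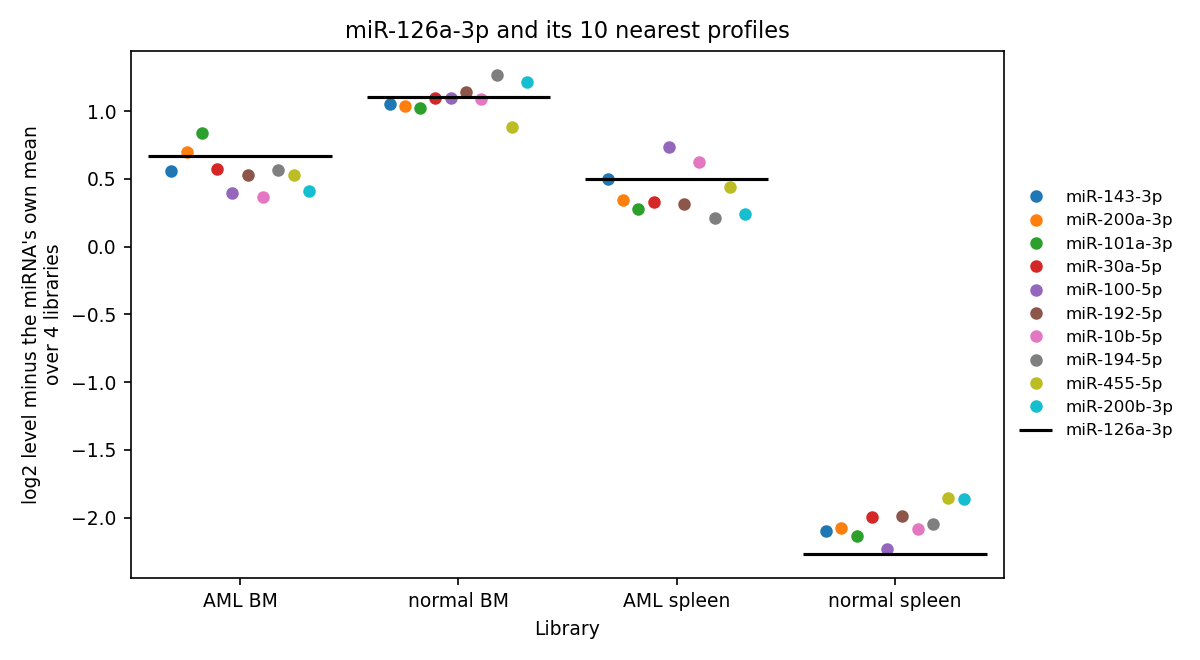
Log2 level of a miRNA minus its own mean over the 4 libraries (y axis) in each library (x axis), with a black line for miR-126a-3p and a point for each of its 10 nearest profiles. In every library the points lie close to the line, with miR-143-3p at a root-mean-square difference of 0.10 and miR-200b-3p, the farthest of the 10, at 0.28.

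Markers of cell types that a sorted sample could also hold were set beside miR-126a-3p. Median log2 ratios over all miRNAs compared, against which the lists are read, were 0.0029 in AML against normal BM, -0.25 in AML against normal spleen, 0.19 in normal spleen against normal BM and -0.12 in AML spleen against AML BM. Over all miRNAs compared, 13.4% were called higher and 12.0% lower in AML against normal BM. In AML against normal spleen 25.0% were higher and 21.3% lower. In normal spleen against normal BM 30.8% were higher and 35.5% lower. In AML spleen against AML BM these shares were 13.7% and 21.3%. Counts of called list members are read against these shares. Most other endothelial-enriched miRNAs were not called where miR-126a-3p was. Of 12 on this list, 9 were compared in AML against normal spleen, of which 2 were higher (miR-218-5p at 2.34 and miR-27b-3p at 1.16), 0 were lower and 7 were neither, with a median log2 ratio of -0.01. miR-222-3p stood at -0.66 there and miR-221-3p at -0.998. In normal spleen against normal BM 2 of the 9 were lower, miR-218-5p at -2.63 and miR-27b-3p at -1.83, and the median was -0.07. In AML against normal BM 1 was higher, miR-503-5p at 1.03, and 0 were lower. In AML spleen against AML BM 2 were lower, miR-222-3p at -1.51 and miR-503-5p at -1.18. The summed level of this list in CPM was 19879 (AML BM), 21054 (normal BM), 14627 (AML spleen) and 13589 (normal spleen), a narrower range than that of miR-126a-3p. The part of endothelial RNA in the values of miR-126a-3p was not tested. miR-296-5p has no row in the deposited counts and could not be compared, and miR-322-5p was at 0 in normal spleen.

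The stromal and smooth muscle list was lowest in normal spleen and highest in normal BM, like miR-126a-3p, with summed levels in CPM of 17760 (AML BM), 26305 (normal BM), 18358 (AML spleen) and 3104 (normal spleen). In AML against normal spleen 4 of 4 members compared, of 9, were higher, among them miR-199a-3p at 2.74 and miR-199a-5p at 1.83, with a median of 2.55. In normal spleen against normal BM 7 of 7 were lower, where 35.5% of all miRNAs were, with a median of -3.15. In AML against normal BM 3 of 7 were lower, miR-214-3p at -3.02, miR-199b-5p at -1.55 and miR-199a-5p at -1.15, and 0 were higher. In AML spleen against AML BM 0 of 5 were called. There were 23.3 reads of miR-126a-3p per 100 reads of this list in AML BM [21.9 to 24.9] and 21.4 in normal BM [20.03 to 22.8]. There were 20.1 in AML spleen [18.5 to 21.8] and 17.5 in normal spleen [15.1 to 20.3]. The intervals of AML BM and normal spleen did not overlap, and neither did those of AML BM and AML spleen. Most counts of this list were those of miR-143-3p, picked above as the nearest profile. It held 3957 of 4980 counts in AML BM and 4124 of 5455 in normal BM. In spleen it held 2616 of 3542 with AML and 879 of 1217 in normal mice. A near-constant ratio to this list thus follows largely from that choice and is a description only. Only miR-214-5p was at 0, in AML BM, normal BM and normal spleen. The part of stromal RNA in the values of miR-126a-3p was not tested.

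The stem and progenitor list, which holds HOX-embedded miRNAs and the miR-99, miR-100 and miR-125 families, was also lowest in normal spleen and highest in normal BM. Its summed levels in CPM were 44686 (AML BM), 61054 (normal BM), 39489 (AML spleen) and 9962 (normal spleen), and miR-130a-3p was at 0 in normal spleen. In AML against normal spleen 6 of 9 members compared, of 11, were higher and 1 was lower, with a median of 1.52. miR-100-5p stood at 2.97, miR-10b-5p at 2.70 and miR-10a-5p at 1.90, and miR-196b-5p, raised in leukaemias with MLL fusions, was the lower one at -1.74 [-3.45 to -0.38]. In normal spleen against normal BM 9 of 9 were lower, where 35.5% of all miRNAs were, with a median of -2.15. In AML against normal BM 0 of 9 were called, with miR-196b-5p at 0.86. In AML spleen against AML BM 2 of 9 were lower, miR-196b-5p at -4.75 and miR-125a-5p at -1.88. miR-196b-5p had 196 counts in AML BM, 80 in normal BM, 5 in AML spleen and 34 in normal spleen, so it did not follow the levels of miR-126a-3p.

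The miRNAs of striated muscle were lowest and highest in the same libraries, with summed levels in CPM of 10464 (AML BM), 35530 (normal BM), 12222 (AML spleen) and 2306 (normal spleen). All 3 were higher in AML against normal spleen (median 2.41) and lower in AML against normal BM (median -1.81) and in normal spleen against normal BM (median -3.96). In AML spleen against AML BM 1 of 3 was higher, miR-133a-3p at 1.09. None of the 3 was at 0 in any library, and their part in the values of miR-126a-3p was likewise not tested.

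The myeloid and lymphocyte lists were highest in normal spleen, where miR-126a-3p was lowest. The myeloid and pan-haematopoietic list summed to 4465 (AML BM), 2898 (normal BM), 7163 (AML spleen) and 26504 (normal spleen) CPM. Its largest member, miR-146a-5p, stood at 2311, 2107, 4183 and 17223 CPM in the same order. Of the 5 myeloid members compared, 3 were higher in AML against normal BM and 4 were lower in AML against normal spleen. In normal spleen against normal BM 4 were higher and 1 was lower. Between the AML libraries, 1 was higher in the spleen and 1 was lower. Its member miR-223-3p, abundant in myeloid cells, had 12 counts in AML BM, 10 in normal BM, 4 in AML spleen and 28 in normal spleen. Every other member of the list had more counts in each library, so the scarcity of this row does not describe the list. For example, miR-142a-3p had 170 counts in AML BM, 31 in normal BM, 253 in AML spleen and 1704 in normal spleen. The other arm of miR-223, miR-223-5p, had 149 counts in AML BM, 42 in normal BM, 10 in AML spleen and 36 in normal spleen. The lymphocyte list summed to 41754 (AML BM), 16125 (normal BM), 46274 (AML spleen) and 105930 (normal spleen) CPM. Most of each sum was miR-181a-5p, at 36519, 13150, 33057 and 73049 CPM in the same order. Its member miR-150-5p stood at 1352, 743, 8687 and 25275 CPM, so the sums of the AML libraries were closer than the levels of this member. Of the 5 lymphocyte members, 2 were higher in AML against normal BM and 4 were lower in AML against normal spleen. In normal spleen against normal BM 5 were higher, where 30.8% of all miRNAs were. Between the AML libraries, 3 were higher and 1 lower in the spleen. The summed levels of the erythroid list stayed between 7664 CPM (AML BM) and 9784 CPM (normal BM). The erythroid member miR-451a was lower in AML against normal BM at -2.15 and higher in AML against normal spleen at 1.96. It was lower in normal spleen against normal BM at -3.43, while miR-486a-5p stood at 0.53, -0.35 and 1.01 in these comparisons. The member miR-144-3p stood at -0.02 in AML against normal BM. It was called lower in AML spleen against AML BM at -3.63, with 2 counts against 36. Of the erythroid members compared, 1 of 3 was lower in AML against normal BM and 1 of 2 higher in AML against normal spleen. In normal spleen against normal BM 1 of 2 was higher and 1 lower, and between the AML libraries 1 of 3 was lower. In a bulk library, fewer cells of a type and less RNA per cell cannot be told apart, and the part of any of these cell types in the miR-126 values was not tested.

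**Figure D5:**
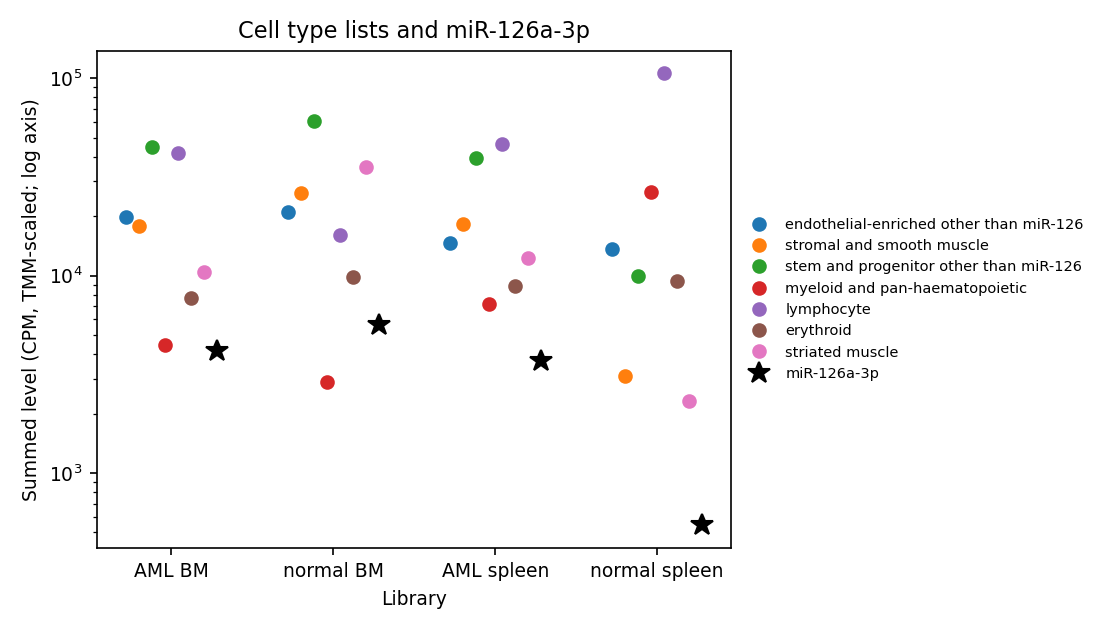
Summed level of each cell type list and level of miR-126a-3p (y axis, CPM of the TMM-scaled library, log axis) in the 4 libraries (x axis, 1 per group). In normal spleen miR-126a-3p (star), the stromal list (3104 CPM) and the striated muscle list (2306 CPM) are at their lowest. So are the stem and progenitor list (9962 CPM) and the endothelial-enriched list (13589 CPM, against 14627 CPM in AML spleen). The lymphocyte list (105930 CPM) and the myeloid list (26504 CPM) are at their highest there.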

How the data were processed

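The authors deposited a table of read counts per miRNA for 4 small RNA libraries (total RNA by QIAGEN RNeasy, Illumina HiSeq, per the labels' protocols). The deposited TPM values, so named per the file headers, equalled the count per 1000000 counts of the library, with no length term, and served only for this check. The sources used here name no aligner, counting rule, strand setting, genome build or miRNA annotation. Groups came from sample titles, 1 library each.

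Library sizes were scaled by TMM with edgeR 4.0.16 in R 4.3.3. Ratios of scaled counts carry exact conditional (Clopper-Pearson) 95% intervals. For the model with terms for tissue and leukaemia, rows reaching 30 counts in a library entered edgeR's quasi-likelihood test, with DESeq2 1.42.0 and limma 3.58.1 as alternatives and Benjamini-Hochberg adjustment. Intervals and fits were tested on simulated counts. Those for the fits held no tissue effect and less spread between libraries than edgeR estimated here. They check the code and do not measure how the fits perform on these libraries. Other scalings, count minimums and folds were tried, the minimums and folds not on the calls of the miR-126 rows. Intervals of differences between ratios use the normal approximation to counting error. The table holds no molecular identifiers.

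The members, the 7 lists and the comparisons were chosen with earlier results of these data known. Genes named are the 4 rows, the 10 nearest profiles, and list members with the highest or lowest ratio or the highest mean count. Outside this rule, miR-199b-5p and miR-125a-5p are named because they were called lower. Members named only because a count was 5 or fewer, and miR-223-3p, miR-223-5p, miR-142a-3p, miR-451a, miR-144-3p and miR-486a-5p, were named after their values were seen.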

Additional observations from a re-analysis of the deposited data

Results flagged for a closer look

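miR-126a-3p stood on opposite sides of 0 in the 2 tissues. Its AML-to-normal log2 ratio was 2.76 in spleen and -0.44 in BM, a difference of 3.20, with 1 library per group. The difference was not tested over replicates, and the BM ratio did not reach 2-fold.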

How the results depend on the processing

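No paired analysis was possible because each group has 1 library and the labels give no replicate numbers. Leaving out 1 library was not run, since it takes away 2 of the 4 comparisons and gives the others no replicate check. With miR-126b-3p left out as a repeat of miR-126a-5p, 44 ratios were recomputed under other scalings, without repeated rows or with summed arms. These were of rows with enough counts to be called, and all kept their direction and call. Another 8, of miR-126b-5p where it was too thinly covered for a call, kept their direction. In normal spleen against normal BM its log2 ratio of -1.22 became -0.98 under DESeq2's size factors, inside 2-fold. Other minimums and folds were not applied to these rows. The called miR-126b-5p ratios were 2.63-fold in AML BM against normal BM and 2.45-fold lower in AML spleen against AML BM, under a fold of 4. Their larger count of 57, and those of 49 and 68 behind the called miR-126a-5p ratios, are under a minimum of 100. The uncalled miR-126a-5p was 1.69-fold lower in AML spleen than AML BM, beyond a fold of 1.5. Of 9 recomputed differences between the AML ratios of spleen and BM, which carry no threshold, 8 kept their direction. The exception was that of miR-126b-5p, at -0.08, which turned to 0.13 on total counts. Counts of all miRNAs called moved with the minimum count and the fold. For AML BM against normal BM they were 119, 93 and 24 at minimums of 1, 10 and 100, and 96 and 14 at folds of 1.5 and 4, against 55. For AML spleen against normal spleen they were 179, 151 and 64 at these minimums and 143 and 38 at these folds, against 100. For normal spleen against normal BM they were 259, 212 and 96 at these minimums and 179 and 97 at these folds, against 155. For AML spleen against AML BM they were 141, 113 and 37 at these minimums and 110 and 23 at these folds, against 74. With miR-126b rows added to the side of the hairpin they share, the 3p share was 83.6% in AML BM, 89.7% in normal BM, 88.1% in AML spleen and 91.9% in normal spleen. This adds the 5p reads a second time. In the additive model DESeq2 called 12 miRNAs for tissue where edgeR called 0, and the cause was not tested. Low counts limit miR-126b-5p and, in normal spleen, miR-126a-5p most.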
